A study of Rattus norvegicus with 18 samples.

Results

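Mesenchymal stem cells (MSCs) cultured from the bone marrow of miR-337-/- rats (KO) and wild type rats (WT) were compared under serum starvation (SSt), the condition in which serum is withdrawn from the medium. The comparison took 6 of the 18 RNA-seq libraries of the study, 3 of KO SSt and 3 of WT SSt, chosen by their labels alone. Of 32623 genes in the deposited tables, 12521 had an FPKM (fragments per kilobase of transcript, scaled to the library's size) of at least 1 in at least 3 of the 6 libraries and were tested. Both groups came from 2-month-old rats of the SD strain, were grown to passage 3 and are labelled as starved of serum for 24 h. The study's methods state 8 h of starvation before stretch or serum and no separate time for SSt cells. The other 12 libraries came from KO and WT cells that were starved for 8 h and then given fetal bovine serum (FBS) or 10% cyclic mechanical stretch (CMS). The labels give 24 h for these treatments, and the study's methods a shorter time.

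Each genotype was deposited as a table of its own. Genotype therefore cannot be told apart from the culture, the cell isolation or the library batch. No label says if separate rats or cultures gave the 3 libraries of a group. The p-values therefore cover only the spread between these libraries, which may be technical. The labels do not give how many KO lines or animals were used.

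miR-337 belongs to a large cluster of microRNAs in an imprinted chromosome region. A microRNA pairs through its seed with messenger RNAs, most often in their tails, and lowers their translation or stability. The study treats insulin receptor substrate 1 (Irs1) as its target, an adaptor that passes signals of the insulin and IGF receptors to PI3K, Akt and mTOR and so to growth and division. Both arms of rat miR-337 are shown because the labelled deletion is named for this microRNA. They were taken from RefSeq (GRCr8, plus strand), with the 5p arm at chr6:134321170-134321190 and the 3p arm at chr6:134321201-134321223, and the seed (bases 2 to 8) is in capitals. The seeds of the arms differ.
rno-miR-337-5p: cGGCGUCAugcaggaguugau
rno-miR-337-3p: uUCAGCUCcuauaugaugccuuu

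The deletion itself could not be checked, since the gene Mir337 had a count of 0 in all 18 libraries, KO and WT alike. Of 12 genes of the imprinted region found in the tables, Wdr25 was the only one abundant enough to be tested, and its scaled FPKM was 2.11, 2.34 and 1.93 in KO SSt, against 2.56, 2.70 and 2.01 in WT SSt (log2 fold change -0.19, SE 0.155, adjusted p 0.340). The groups overlapped. Begain and Dlk1, also from that region, stayed below the filter and were not tested. Begain had 98, 83 and 95 counts in KO SSt and 15, 30 and 27 counts in WT SSt, and Dlk1 had 58, 122 and 115 counts in KO SSt and 23, 47 and 36 counts in WT SSt.

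The label MSC was checked against defining markers. Thy1, a surface glycoprotein of cultured MSCs, stood at 661, 632 and 663 scaled FPKM in KO SSt, against 505, 487 and 496 in WT SSt, and the summed level of 26 stromal markers was 3069 to 3155 in KO SSt and 3077 to 3160 in WT SSt. By the test described below, 11 of 25 tested stromal markers were higher (3 by at least 2-fold), 8 lower (1 by at least 2-fold) and 6 did not pass. Of all genes, 26.0% were higher and 26.9% lower. The log2 fold changes of these markers ran from -1.31 to 2.64, so near-equal sums do not show that single markers were equal. Lepr, the leptin receptor by which the study describes these cells, had 0, 0 and 8 counts in KO SSt and 0, 0 and 0 counts in WT SSt, so its RNA was at or near 0 in these libraries. Pan-leukocyte Ptprc (CD45) was present, with 5577, 5248 and 5941 counts in KO SSt against 10031, 11877 and 12851 counts in WT SSt. The libraries thus held leukocyte RNA beside that of stromal cells. Of 11 endothelial markers, Emcn, Cldn5 and Robo4 were at 3 counts or fewer in every library, but Tie1 had 1986 to 1994 counts in KO SSt and 2148 to 2569 counts in WT SSt, and the endothelial sum was 22.4 to 23.3 scaled FPKM in KO SSt and 21.1 to 22.0 in WT SSt. Hbb (a globin of red cells) had 0 counts, and the T cell gene Cd3e had at most 3 counts in every library.

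Depth was 60155298 to 64423334 counts per KO SSt library and 63381441 to 71847969 counts per WT SSt library. On the log scale, libraries of a genotype correlated at r = 0.972 to 0.978 and libraries of different genotypes at r = 0.934 to 0.944 across genes. The first principal component held 57.2% of the variance and separated the genotypes, and KO replicate 2 lay apart from the other KO libraries on the second (12.8%). Levels below are FPKM divided by each library's TMM factor (scaled FPKM). Since the factors were set within each treatment, levels are compared between KO and WT of the same treatment. Tests are edgeR's quasi-likelihood F test on the counts, with Benjamini-Hochberg adjustment over all 12521 genes, and a gene is called when its adjusted p is under 0.05 and it differs by at least 2-fold.

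KO and WT MSCs under SSt differed in 878 genes by this rule, or 7.01% of those tested. Of these, 291 (2.32%) were higher in KO and 587 (4.69%) were lower in KO. With the adjusted p alone, 3258 genes (26.0%) were higher and 3372 genes (26.9%) were lower. Scaling the libraries by their totals instead of TMM moved this split to 4413 higher and 2569 lower, which is 63.2% higher against 49.1%, so small differences of a single gene depend on the scaling. In 7782 genes (62.2%) the 3 KO and 3 WT libraries did not overlap, and such a lack of overlap is therefore common in these data. The median log2 fold change of all tested genes was 0.01. The shares of all genes given here are the background for the counts of list members below.

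Most tested genes of 4 inflammatory lists were lower in KO SSt. Of these, 13 of 20 interleukins and colony-stimulating factors, 12 of 18 chemokines, 15 of 18 genes of nitric oxide, arginine and prostaglandin and all 8 antimicrobial proteins fell, against 26.9% of all genes, whereas proteases moved in both directions. Such genes are classic outputs of NF-kappaB, a transcription factor that inflammatory signals release from its inhibitor and that then also induces its own inhibitors. Nos2, the inducible nitric oxide synthase, was at 4.56, 2.78 and 2.63 scaled FPKM in KO SSt, against 412, 446 and 462 in WT SSt (log2 fold change -7.05, SE 0.233, adjusted p 6.28e-07). No KO library came near a WT library. The filter also admitted genes that were high in WT SSt alone, such as Il10, and for these a fall was favoured.

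Of 20 tested interleukins and colony-stimulating factors, 13 fell, all past the 2-fold limit, 1 rose and 6 did not pass the test. Their median log2 fold change was -1.84, against 0.01 for all genes. Il1b, the main inflammatory interleukin of activated macrophages, was at 24.9, 19.6 and 18.7 scaled FPKM in KO SSt and at 1030, 999 and 863 in WT SSt (log2 fold change -5.52, SE 0.133, adjusted p 2.29e-07). Il11, an interleukin of stromal cells related to IL-6, was at 3.01, 1.86 and 1.75 in KO SSt and at 79.1, 86.7 and 85.5 in WT SSt (log2 fold change -5.25). Csf3, the granulocyte colony-stimulating factor, had 44.3, 27.6 and 21.6 in KO SSt against 536, 554 and 506 in WT SSt (log2 fold change -4.09). The 3 genes fell in every KO library.

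Il6 itself was lower by less, with 142, 118 and 107 scaled FPKM in KO SSt and 443, 474 and 446 in WT SSt (log2 fold change -1.89, SE 0.0962). Il10, an anti-inflammatory cytokine, was near the detection limit in KO SSt at 0.248, 0 and 0.353, against 30.5, 38.2 and 33.9 in WT SSt (adjusted p 1.72e-05). Pro- and anti-inflammatory members thus moved the same way. Il1a, Csf2, Tnf, Osm, Lif and the antagonist Il1rn were lower as well, with log2 fold changes of -2.97, -4.14, -2.90, -2.51, -1.78 and -1.35. Csf1, the growth factor of macrophages, was the member that rose, to 299, 297 and 312 in KO SSt, against 265, 267 and 261 in WT SSt (log2 fold change 0.20, adjusted p 8.08e-04).

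Chemokines, which recruit leukocytes, divided by gene. Of 18 tested, 12 fell (9 called), 2 rose (1 called) and 4 did not pass, with a median of -1.06. Ccl3, a macrophage chemokine, was at 19.3, 14.1 and 14.2 scaled FPKM in KO SSt against 778, 849 and 747 in WT SSt (log2 fold change -5.64, SE 0.135). Cxcl2, which attracts neutrophils, was at 42.6, 29.5 and 23.8 in KO SSt against 781, 807 and 680 in WT SSt (log2 fold change -4.57, SE 0.212). Cxcl1, a close relative, fell less, with 450, 370 and 340 in KO SSt and 1505, 1667 and 1538 in WT SSt (log2 fold change -2.02). Reads of such related genes could be split by the counting. Ccl2, the main monocyte attractant and the most abundant of the list, had overlapping groups, with 2473, 2270 and 2328 in KO SSt and 2540, 2423 and 2378 in WT SSt (log2 fold change -0.05, SE 0.0409, adjusted p 0.308). Its neighbour Ccl7 had 723, 675 and 703 in KO SSt and 723, 688 and 694 in WT SSt (adjusted p 0.949).

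**Figure D1:**
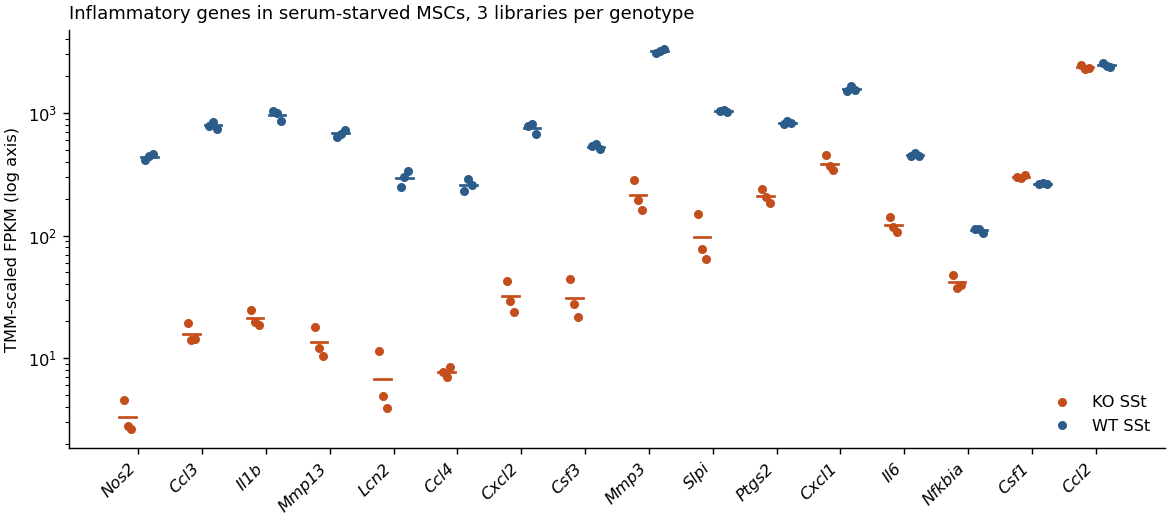
Scaled FPKM (log axis) of 16 inflammatory genes in each KO SSt library (orange, left of each pair) and WT SSt library (blue), with a line at the mean of 3. For Nos2 the KO libraries (2.63 to 4.56) lie far below the WT libraries (412 to 462), and for Ccl2 the groups overlap.

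The subunits and feedback inhibitors of NF-kappaB were lower together. Of 16 tested, 15 fell, 6 of them called, 0 rose and 1 did not pass, with a median of -0.69. When the libraries were scaled by their totals, 12 fell. Nfkbia, the inhibitor IkappaB-alpha, was at 47.7, 37.1 and 39.4 scaled FPKM in KO SSt and at 113, 113 and 104 in WT SSt (log2 fold change -1.41, SE 0.0905, adjusted p 1.09e-05). Tnfaip3 (A20), an enzyme that switches the pathway off, had 5.42, 5.60 and 5.43 in KO SSt against 17.6, 18.9 and 15.4 in WT SSt (log2 fold change -1.65). Nfkbiz, an inducible cofactor, had 10.6, 9.30 and 8.03 in KO SSt and 37.3, 36.8 and 31.0 in WT SSt (log2 fold change -1.91). The genes of the subunits moved less, with Nfkb1 at 33.7, 32.6 and 32.6 in KO SSt against 51.8, 53.1 and 53.8 in WT SSt (log2 fold change -0.68) and Rela at 37.7, 36.5 and 36.0 in KO SSt against 42.7, 40.0 and 41.1 in WT SSt (log2 fold change -0.17, adjusted p 0.00872).

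Promoters of Nfkbia, Cxcl1 and Mmp13 are printed because each of these genes fell and holds the letters of a motif of inflammatory factors. The windows come from RefSeq (GRCr8, each in the direction of its gene) and were cut to 45 bases on each side of the matches, with the match in capitals. The motif GGANTTTCC, a form of the kappa B site, was searched on both strands of 300 bases (250 before and 50 after the start of the gene). It occurred in 5 of 13 NF-kappaB genes that have a promoter in the table, in 2 of 14 chemokines, in 2 of 12 interleukins and colony-stimulating factors and in 0 of 14 nitric oxide and prostaglandin genes, against 1.28% of all 33469 promoters and 1.40% of those of tested genes. Nfkbia holds 2 matches, at -180 on the gene's strand and at -31 on the other strand (chr6:78597050-78597297, minus strand), and Cxcl1 holds 1 at -83 (chr14:17479351-17479449, minus strand).
Nfkbia: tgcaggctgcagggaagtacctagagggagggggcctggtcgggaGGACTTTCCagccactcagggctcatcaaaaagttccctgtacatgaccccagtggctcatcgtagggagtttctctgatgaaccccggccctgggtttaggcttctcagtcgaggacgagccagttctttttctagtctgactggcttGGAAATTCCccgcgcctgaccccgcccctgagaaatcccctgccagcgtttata
Cxcl1: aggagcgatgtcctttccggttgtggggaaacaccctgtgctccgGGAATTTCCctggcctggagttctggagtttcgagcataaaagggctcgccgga

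Enzymes that make nitric oxide, polyamines and prostaglandins fell in 15 of 18 tested members (9 called), 1 rose and 2 did not pass. Slc7a2, the arginine importer that feeds Nos2, was at 5.14, 3.91 and 4.02 scaled FPKM in KO SSt and at 90.0, 106 and 109 in WT SSt (log2 fold change -4.54, SE 0.128). Arg1, the arginase that competes with Nos2 for arginine, fell too, with 44.8, 42.1 and 36.6 in KO SSt and 217, 203 and 200 in WT SSt (log2 fold change -2.33). Ptgs2 (COX-2), the inducible enzyme of prostaglandin synthesis, had 239, 205 and 186 in KO SSt and 809, 862 and 836 in WT SSt (log2 fold change -1.99). Ptgs1, the constitutive enzyme, differed far less, with 129, 122 and 128 in KO SSt and 148, 141 and 137 in WT SSt (log2 fold change -0.17, adjusted p 0.00658).

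Of 13 antimicrobial secretory proteins in the tables, 8 passed the filter. All 8 fell, 7 of them called, with a median of -2.84. For a member that passed the filter through WT SSt alone, a fall was favoured by the filter. Lcn2, a protein that withholds iron from bacteria, was at 11.5, 4.91 and 3.89 scaled FPKM in KO SSt against 247, 299 and 334 in WT SSt (log2 fold change -5.44, SE 0.396). Slpi, an inhibitor of leukocyte elastase, was at 150, 77.0 and 64.6 in KO SSt against 1038, 1060 and 1015 in WT SSt (log2 fold change -3.42). KO replicate 1 was the highest KO library for both genes. Hp and the complement component C3, acute-phase proteins, were lower in KO SSt by 1.95 and 2.25 on the log2 scale.

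Matrix proteases were split. The inducible collagenase Mmp13 was at 17.8, 12.2 and 10.5 scaled FPKM in KO SSt and at 638, 677 and 731 in WT SSt (log2 fold change -5.66, SE 0.204, adjusted p 8.79e-07). The stromelysin Mmp3 had 283, 196 and 162 in KO SSt against 3061, 3206 and 3311 in WT SSt (log2 fold change -3.90), and Mmp9, a gelatinase of macrophages and osteoclasts, had 35.3, 25.9 and 23.9 in KO SSt against 290, 330 and 333 in WT SSt (log2 fold change -3.49). The groups stood far apart for these inducible enzymes. Mmp2, the constitutive gelatinase of fibroblasts, was nearly level, at 836, 763 and 754 in KO SSt and 896, 882 and 924 in WT SSt (log2 fold change -0.20), and Mmp12 overlapped, at 445, 389 and 398 in KO SSt and 345, 417 and 416 in WT SSt (adjusted p 0.534). Of 28 tested proteases and inhibitors, 15 fell (7 called), 9 rose (3 called) and 4 did not pass. The AP-1 motif TGANTCA occurred in the promoters of 5 of 20 of these genes, against 7.33% of all promoters and 4.89% of those of tested genes, among them Mmp13, Mmp3, Mmp10 and Mmp12. The motif occurred in 0 of 14 promoters of the nitric oxide, arginine and prostaglandin genes. Mmp13 holds it at -66 (chr8:12782718-12782814, plus strand).
Mmp13: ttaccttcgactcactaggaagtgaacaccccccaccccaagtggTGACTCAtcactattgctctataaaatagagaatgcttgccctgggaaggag

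Macrophage RNA was lower in KO SSt, as were most inflammatory genes. The summed level of 30 macrophage markers was 4294 to 4458 scaled FPKM in KO SSt and 7140 to 7396 in WT SSt, a log2 ratio of -0.732, and of these markers only Marco was at 3 counts or fewer in every library. In bulk libraries, fewer cells of a type and less RNA per cell cannot be told apart. Of 27 markers tested, 22 fell (8 called), 4 rose (2 called) and 1 did not pass, with a median of -0.87. Their part in the inflammatory differences was not tested. The log2 fold changes of Nos2 (-7.05), Il1b (-5.52) and Ccl3 (-5.64) stand beside that ratio.

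Single macrophage genes did not move alike. Lyz2 (lysozyme), the most abundant, was at 1451, 1437 and 1530 scaled FPKM in KO SSt against 2278, 2437 and 2391 in WT SSt (log2 fold change -0.69, SE 0.0381). Cd14, the co-receptor for bacterial lipopolysaccharide, had 175, 146 and 140 in KO SSt against 576, 573 and 576 in WT SSt (log2 fold change -1.90). Adgre1, a receptor typical of rodent macrophages, had 3.12, 2.76 and 2.76 in KO SSt against 44.8, 54.2 and 61.9 in WT SSt (log2 fold change -4.22, SE 0.127). Csf1r, the receptor for Csf1, fell by only 0.20 on the log2 scale. Granulocyte markers were low, with sums of 1.16 to 2.21 in KO SSt and 8.82 to 10.3 in WT SSt, and Mpo, Elane and S100a9 were at 3 counts or fewer throughout. Osteoclast markers summed to 106 to 126 in KO SSt and 378 to 420 in WT SSt, and Mmp9 made up most of the WT sum. Of 7 tested osteoclast markers, 3 fell (1 called), 1 rose and 3 did not pass, with a median of -0.50. Acp5 had 1665, 1277 and 1276 counts in KO SSt and 2306, 2388 and 2428 counts in WT SSt. The marker that rose was Ctsk, the collagen-degrading protease of osteoclasts. It was at 48.2, 45.5 and 45.2 in KO SSt and at 35.9, 34.9 and 35.8 in WT SSt (log2 fold change 0.38). Calcr had 0 counts. The lymphoid sum was 19.5 to 23.5 in KO SSt and 59.0 to 67.1 in WT SSt and came mostly from Cd4, which macrophages of the rat also express.

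Several genes of MHC class II rose. Class II molecules present peptides to CD4 T cells, and the transactivator Ciita switches on the whole set. Cd74, the invariant chain, was at 275, 297 and 298 scaled FPKM in KO SSt and at 114, 112 and 105 in WT SSt (log2 fold change 1.39, SE 0.0448, adjusted p 6.11e-07). RT1-Da had 28.2, 29.0 and 28.2 in KO SSt and 9.80, 11.1 and 9.75 in WT SSt (log2 fold change 1.47), and RT1-Db1 had 6.95, 7.56 and 6.66 in KO SSt and 2.23, 2.33 and 1.82 in WT SSt (log2 fold change 1.73). Ciita itself was low, at 1.11, 1.75 and 1.41 in KO SSt and 0.486, 0.598 and 0.475 in WT SSt (log2 fold change 1.45, adjusted p 4.65e-04). B2m, the light chain of class I, fell to 344, 316 and 327 in KO SSt, against 486, 527 and 515 in WT SSt (log2 fold change -0.63). In the whole list of antigen presentation 12 of 24 members rose (6 called), 6 fell (0 called) and 6 did not pass. RT1 genes are near-identical, so how reads were split between them is uncertain.

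C1qa, C1qb and C1qc, subunits of complement C1q that macrophages make, rose as well, by 1.02, 0.93 and 0.86 on the log2 scale, unlike most macrophage markers. Interferon-stimulated genes moved in both directions, but every called change was a fall. Of 18 tested, 6 rose (0 called), 7 fell (4 called) and 5 did not pass, with a median of -0.21. Of all genes, 4.69% were called lower. Oasl fell to 0.525, 0.382 and 0.557 scaled FPKM in KO SSt, against 6.25, 7.74 and 9.43 in WT SSt (log2 fold change -3.99), whereas Irf1, which interferon-gamma induces, rose to 13.1 ± 0.791 in KO SSt, against 9.39 ± 0.595 in WT SSt (SD, n = 3 each), with no overlap (log2 fold change 0.48).

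**Figure D2:**
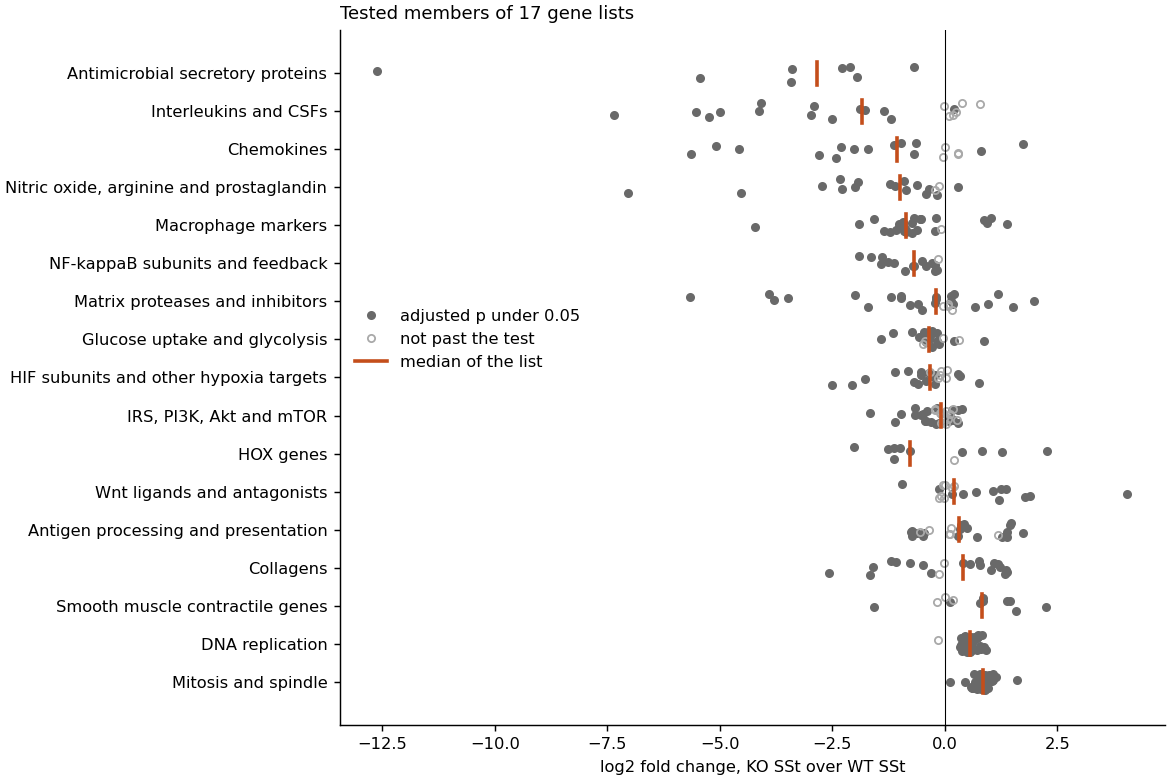
Log2 fold change (KO SSt over WT SSt) of each tested member of 17 gene lists, filled where the adjusted p is under 0.05, with a line at the median of the list. Medians run from -2.84 for antimicrobial proteins to 0.85 for mitosis and spindle genes, and collagens, proteases and HOX genes lie on both sides of 0.

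Genes of cell division were higher in KO SSt. All 43 tested genes of mitosis and the spindle rose, 7 of them by at least 2-fold, with a median of 0.85, and 41 of 42 genes of DNA replication rose, 0 by 2-fold, with a median of 0.56. These counts were the same with library totals, RLE or upper quartile scaling, while DESeq2 passed 42 of the 43, and 1 fit of all 18 libraries passed 41 of 43 mitosis and 37 of 42 replication genes. A dividing cell makes the replication genes in S phase through E2F factors and the mitotic genes later through FOXM1 and MYBL2. The RNA of both sets is a common readout of the share of cycling cells. Mki67 (Ki-67), the usual marker of cycling cells, was at 36.3, 42.9 and 43.2 scaled FPKM in KO SSt and at 24.8, 26.1 and 27.0 in WT SSt (log2 fold change 0.65, SE 0.0690, adjusted p 1.35e-04). Every KO library exceeded every WT library.

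Cdk1, the kinase that drives mitosis, stood at 87.3, 86.3 and 89.7 scaled FPKM in KO SSt and 49.2, 50.3 and 50.3 in WT SSt (log2 fold change 0.81, SE 0.0344). Its partner cyclin Ccnb1 was at 58.9, 67.6 and 70.2 in KO SSt and 31.8, 32.7 and 36.1 in WT SSt (log2 fold change 0.97). Cdc20, which starts anaphase, was at 48.6, 55.2 and 58.3 in KO SSt and 24.0, 26.5 and 27.0 in WT SSt (log2 fold change 1.06, SE 0.0751). Racgap1 and Kif23 form the central spindle complex that guides cytokinesis. Kif23 had 24.6, 27.1 and 28.5 in KO SSt and 12.3, 12.7 and 13.3 in WT SSt (log2 fold change 1.06), and Racgap1 had 23.4, 23.6 and 24.0 in KO SSt and 10.8, 4.97 and 7.57 in WT SSt (log2 fold change 1.61, SE 0.236), with WT libraries that lay far apart.

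Among replication genes, Pcna, the sliding clamp, was at 111, 120 and 115 scaled FPKM in KO SSt and at 87.3, 91.6 and 85.7 in WT SSt (log2 fold change 0.39). Rrm2, which makes deoxynucleotides, was at 114, 119 and 121 in KO SSt and at 73.4, 71.5 and 75.5 in WT SSt (log2 fold change 0.68, SE 0.0389). Of 21 genes of the G1 phase, 15 rose, 1 fell and 5 did not pass. The CDK inhibitors differed among themselves. Cdkn1a (p21) overlapped, at 92.3, 94.2 and 92.1 in KO SSt and 98.4, 96.6 and 92.5 in WT SSt (adjusted p 0.299), and Cdkn2a rose to 9.17, 11.1 and 11.0 in KO SSt, against 4.22, 3.42 and 3.33 in WT SSt (log2 fold change 1.51, SE 0.141).

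Promoters of 3 of these genes are shown because the lists split by motif. TTTGAA, the CHR element of mitotic genes, occurred in 26 of 36 mitosis promoters and in 3 of 35 replication promoters, against 18.3% of all promoters and 11.6% of those of tested genes. TTTGGCGC, an E2F site, occurred in 9 of 35 replication promoters and in 0 of 36 mitosis promoters, against 0.493% of all and 0.967% of those of tested genes. Both were searched on both strands of the same windows as above, and a match is a description of the letters only. Cdc20 holds TTTGAA at -51 (chr5:137255800-137255895, minus strand), Kif23 at -79 (chr8:71320613-71320708, minus strand), and Mcm5, of the replicative helicase, holds the E2F letters on the opposite strand at -209 (chr19:13488563-13488656, plus strand).
Cdc20: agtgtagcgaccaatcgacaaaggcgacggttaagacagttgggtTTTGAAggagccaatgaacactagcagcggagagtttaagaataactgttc
Kif23: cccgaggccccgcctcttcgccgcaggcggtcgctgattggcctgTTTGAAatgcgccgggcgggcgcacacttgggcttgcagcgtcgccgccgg
Mcm5: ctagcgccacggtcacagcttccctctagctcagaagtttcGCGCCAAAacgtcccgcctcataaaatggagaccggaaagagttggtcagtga

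Collagens moved in both directions. Of 21 tested collagens, 11 rose (7 called), 8 fell (5 called) and 2 did not pass, with a median of 0.41. Against this stand 2.32% of all genes called higher and 4.69% called lower. Col1a1, the main collagen of bone, was at 1649, 1721 and 1775 scaled FPKM in KO SSt and at 803, 799 and 813 in WT SSt (log2 fold change 1.09, SE 0.0352, adjusted p 6.11e-07). Col3a1, its partner in soft tissue, had 915, 999 and 1025 in KO SSt and 388, 400 and 372 in WT SSt (log2 fold change 1.34). Fn1 (fibronectin) rose to 3422, 3529 and 3504 in KO SSt, against 1983, 2055 and 2032 in WT SSt (log2 fold change 0.79). Col4a1, a network collagen of basement membranes, fell to 111, 103 and 104 in KO SSt, against 325, 324 and 355 in WT SSt (log2 fold change -1.66, SE 0.0484), and its partner Col4a2 fell by 1.59 on the log2 scale. Col18a1 and Col27a1 fell by 1.20 and 1.09, whereas Col4a5 rose by 1.23. Of 9 laminins and nidogens, 6 fell and 3 rose.

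Small proteoglycans that bind collagen moved in both directions. Dcn (decorin) was at 753, 613 and 580 scaled FPKM in KO SSt and at 1814, 1767 and 1831 in WT SSt (log2 fold change -1.48, SE 0.0893). Fmod (fibromodulin) was at 15.0, 15.4 and 16.5 in KO SSt and at 5.12, 4.89 and 4.58 in WT SSt (log2 fold change 1.68), and Bgn (biglycan) overlapped, at 1049, 1056 and 1073 in KO SSt and 1104, 1071 and 1080 in WT SSt (adjusted p 0.319). Mfap5, a protein of elastic microfibrils, rose to 82.7, 84.0 and 89.3 in KO SSt, against 23.5, 24.7 and 24.7 in WT SSt (log2 fold change 1.81, SE 0.0437). Lama2, the laminin chain of muscle and nerve, rose to 3.82, 4.34 and 4.11 in KO SSt, against 0.929, 0.860 and 1.12 in WT SSt (log2 fold change 2.07), while Lamc1, shared by most laminins, fell by 0.53 on the log2 scale.

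Several genes of the osteoblast lineage rose. Of 11 tested osteoblast genes, 6 rose (3 called), 1 fell (also called) and 4 did not pass, with a median of 0.55. The gene that fell was Dlx3, with log2 fold changes of -1.05 under SSt, -2.35 under FBS and -1.99 under CMS. Its call under SSt was lost in 8 of the alternative settings. Sp7 (osterix), which acts after Runx2 in osteoblast formation, was at 5.18, 3.21 and 5.10 scaled FPKM in KO SSt and at 0.408, 0.485 and 0.584 in WT SSt (log2 fold change 3.16, SE 0.247, adjusted p 2.80e-05). Sp7 passed the filter through KO SSt alone, so a rise was favoured. Alpl, the alkaline phosphatase of mineralising cells, was at 2.52, 2.48 and 3.01 in KO SSt and at 0.677, 0.864 and 1.04 in WT SSt (log2 fold change 1.63). Runx2 itself overlapped, at 4.79, 5.47 and 4.40 in KO SSt and 4.69, 4.59 and 4.92 in WT SSt (adjusted p 0.673), and so did Spp1 (osteopontin), at 1639, 1583 and 1546 in KO SSt and 1660, 1608 and 1561 in WT SSt (adjusted p 0.696). Bglap (osteocalcin) had 16, 4 and 2 counts in KO SSt and 2, 2 and 11 counts in WT SSt, and the osteocyte gene Sost had 0, 0 and 4 counts in KO SSt and 0 in each WT SSt library, so neither was tested. Tnfrsf11b (osteoprotegerin), which blocks osteoclast formation, did not differ detectably, at 5.26, 5.71 and 6.21 in KO SSt and 5.66, 5.93 and 5.62 in WT SSt (log2 fold change 0.00, SE 0.0771, adjusted p 0.982).

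Cartilage genes differed strongly. Of 8 tested cartilage genes, 5 rose and 2 fell, all called, and 1 did not pass. Among all genes, 2.32% were called higher and 4.69% called lower. Acan (aggrecan), the main proteoglycan of cartilage, was at 11.4, 15.0 and 15.1 scaled FPKM in KO SSt and at 2.03, 2.75 and 2.11 in WT SSt (log2 fold change 2.59, SE 0.150). Col2a1, the collagen of cartilage, was at 6.04, 7.16 and 7.65 in KO SSt and at 0.997, 1.09 and 0.944 in WT SSt (log2 fold change 2.78). Prg4 (lubricin), which coats joint surfaces, went the other way, with 45.8, 42.4 and 39.1 in KO SSt and 270, 288 and 293 in WT SSt (log2 fold change -2.74, SE 0.0623). Prg4 is abundant, and the summed level of cartilage markers was lower, at 162 to 167 in KO SSt and 314 to 339 in WT SSt.

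Of 12 smooth muscle genes, 8 rose (4 called), 1 fell and 3 did not pass, with a median of 0.82. Among all genes, 26.0% were higher and 2.32% were called higher. Acta2, the actin of smooth muscle and activated fibroblasts, was at 48.4, 57.5 and 67.9 scaled FPKM in KO SSt and at 10.4, 13.1 and 13.4 in WT SSt (log2 fold change 2.24, SE 0.141, adjusted p 1.02e-05). Tagln, which binds actin in the same cells, was at 422, 466 and 476 in KO SSt and at 245, 271 and 246 in WT SSt (log2 fold change 0.84). Des (desmin) fell, to 4.19, 4.92 and 4.16 in KO SSt against 13.2, 14.6 and 12.0 in WT SSt (log2 fold change -1.58). Of 11 adipocyte genes, 8 fell (1 called), 1 rose and 2 did not pass, and Cebpb, an early regulator of fat cells that inflammation also induces, was at 36.0, 33.1 and 33.5 in KO SSt and at 55.5, 58.8 and 61.8 in WT SSt (log2 fold change -0.78). Among tendon genes, Thbs4, a matrix thrombospondin, rose to 12.0, 12.9 and 14.4 in KO SSt, against 2.49, 2.12 and 2.45 in WT SSt (log2 fold change 2.47).

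**Figure D3:**
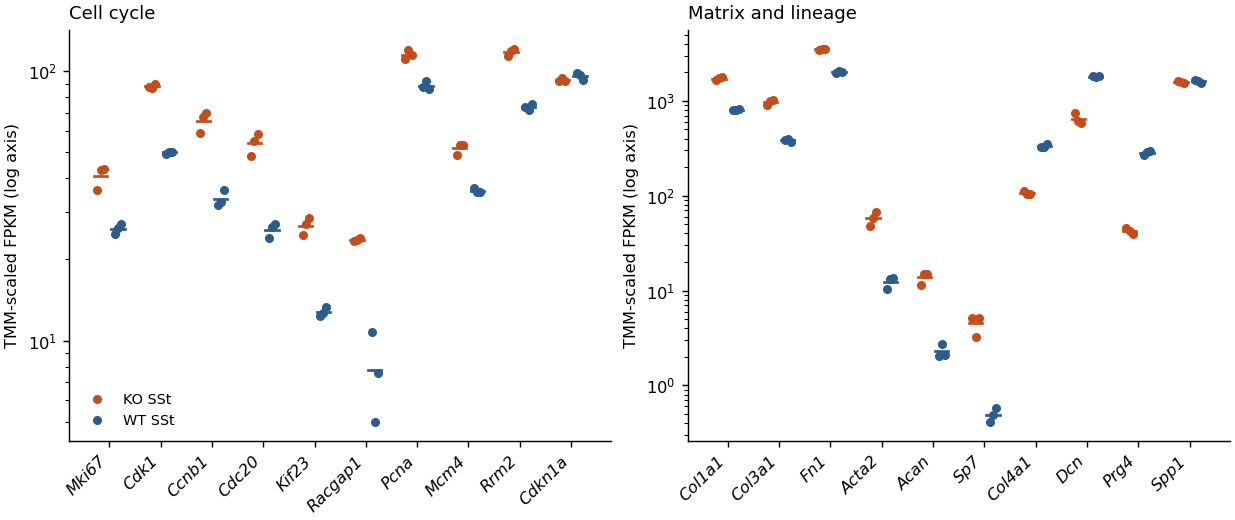
Scaled FPKM (log axes) of 10 cell cycle genes (left) and 10 matrix and lineage genes (right) in each KO SSt library (orange, left of each pair) and WT SSt library (blue), with a line at the mean of 3. KO libraries lie above WT libraries for all cell cycle genes shown except Cdkn1a, whose groups overlap, and among the matrix and lineage genes they lie below WT for Col4a1, Dcn and Prg4 and overlap for Spp1.

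Genes of the pathway that the study places downstream of miR-337 moved in both directions, mostly by less than 2-fold. Of 37 tested genes for insulin receptor substrates, PI3K, Akt and mTOR, 8 rose, 15 fell, 2 of them by at least 2-fold, and 14 did not pass, with a median of -0.09, against 26.0% of all genes higher, 26.9% lower and 4.69% lower by at least 2-fold. Library totals gave 11 higher and 11 lower. Irs1 was at 2.11, 2.84 and 2.68 scaled FPKM in KO SSt and at 2.92, 2.99 and 2.93 in WT SSt (log2 fold change -0.21, SE 0.111, adjusted p 0.146), and the KO libraries lay below the WT libraries. These values are of messenger RNA and do not measure the protein.

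The kinase Akt1 was slightly higher, at 130, 125 and 126 scaled FPKM in KO SSt and 118, 121 and 118 in WT SSt (log2 fold change 0.10, SE 0.0278, adjusted p 0.0198). Mtor overlapped, at 13.1, 14.3 and 13.9 in KO SSt and 14.5, 14.3 and 14.0 in WT SSt (adjusted p 0.332), as did its partner Rptor (adjusted p 0.552). Several subunits of PI3K fell. Pik3cb was at 4.08, 3.62 and 4.18 in KO SSt and at 12.9, 12.7 and 12.0 in WT SSt (log2 fold change -1.66, SE 0.0641, adjusted p 1.16e-06). Pik3r1 was at 12.2 ± 0.672 in KO SSt and at 23.9 ± 0.275 in WT SSt (SD, n = 3 each), with no overlap (log2 fold change -0.97), and Pik3ca fell by 0.39 on the log2 scale. Ddit4 (REDD1), a brake on mTOR that stress induces, was at 22.8, 19.3 and 17.7 in KO SSt and at 44.0, 42.9 and 42.6 in WT SSt (log2 fold change -1.11).

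Genes for sensing of stretch, which the study puts upstream of miR-337, differed by member. The ion channel Piezo1 was at 55.6, 58.1 and 54.2 scaled FPKM in KO SSt and at 58.8, 59.9 and 58.9 in WT SSt (log2 fold change -0.08, SE 0.0320, adjusted p 0.0670). The transcriptional coactivator Yap1 overlapped, at 45.4, 48.0 and 47.4 in KO SSt and 42.1, 46.1 and 43.0 in WT SSt (adjusted p 0.0892), and so did Tead1, a DNA-binding partner of YAP. Of the other TEAD genes, Tead2 rose to 1.89, 1.31 and 1.35 in KO SSt, against 0.580, 0.678 and 0.844 in WT SSt (log2 fold change 1.11, SE 0.217), a call that was lost without WT SSt replicate 1. Tead4 rose by 0.67 and Tead3 by 0.26 on the log2 scale. Of 32 tested YAP and TEAD genes and targets, 14 rose, 11 fell and 7 did not pass (17 and 9 with library totals). Ccn2 (CTGF) was at 249, 274 and 280 in KO SSt and at 107, 111 and 102 in WT SSt (log2 fold change 1.33, SE 0.0526). Ccn1 (CYR61) rose by only 0.34, at 231, 234 and 222 in KO SSt and 186, 184 and 173 in WT SSt, and Axl fell by 0.20. The channels Trpc6 and Kcnk2 were higher in KO SSt by 1.74 and 1.80 on the log2 scale, at low levels.

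Secreted growth factors and their binding proteins differed by member. Of 26 growth factors, 13 fell (3 called), 7 rose (3 called) and 6 did not pass. Of all genes, 26.9% were lower (4.69% called) and 26.0% were higher (2.32% called). The share of growth factors that rose was near that of all genes. Ereg (epiregulin), a ligand of the EGF receptor, was at 18.9, 15.5 and 15.6 scaled FPKM in KO SSt and at 103, 99.5 and 95.9 in WT SSt (log2 fold change -2.58, SE 0.0804). Kitlg (stem cell factor), by which marrow stroma supports blood stem cells, was at 31.0, 32.9 and 32.3 in KO SSt and at 12.6, 12.3 and 12.1 in WT SSt (log2 fold change 1.38). Vegfd rose by 1.57 on the log2 scale, and Vegfa, which hypoxia induces, was at 113, 104 and 145 in KO SSt and 226, 148 and 155 in WT SSt (log2 fold change -0.54, adjusted p 0.0358). Met, the receptor for hepatocyte growth factor, was at 2.63, 2.99 and 2.81 in KO SSt and at 16.8, 16.1 and 16.1 in WT SSt (log2 fold change -2.54, SE 0.0542, adjusted p 1.86e-07). Of 21 growth factor receptors, 14 fell (1 called), 3 rose (1 called) and 4 did not pass.

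IGF-binding proteins hold insulin-like growth factors in the medium. Igfbp5 was at 4.51, 3.31 and 2.67 scaled FPKM in KO SSt and at 45.9, 49.6 and 52.0 in WT SSt (log2 fold change -3.81, SE 0.180). Igfbp6 moved the opposite way, with 59.9, 65.7 and 66.2 in KO SSt and 18.3, 20.7 and 16.7 in WT SSt (log2 fold change 1.78, SE 0.0816). Igfbp7 overlapped, at 113, 99.2 and 103 in KO SSt and 108, 98.6 and 101 in WT SSt (adjusted p 0.675). Noggin (Nog), an antagonist of bone morphogenetic proteins, rose to 7.81, 8.95 and 7.30 in KO SSt, against 1.35, 1.88 and 1.53 in WT SSt (log2 fold change 2.33), whereas the antagonist Grem1 overlapped (adjusted p 0.832).

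Most Wnt genes past the test were higher. Of 19 tested Wnt ligands and antagonists, 10 rose (7 called), 2 fell (0 called) and 7 did not pass. Of all genes, 26.0% were higher and 2.32% were called higher. For members that passed the filter through KO SSt alone, such as Wnt16, a rise was favoured. Wnt16, a ligand that bone-forming cells secrete, was at 2.18, 1.90 and 2.38 scaled FPKM in KO SSt and at 0.141, 0.128 and 0.105 in WT SSt (log2 fold change 4.05, SE 0.209, adjusted p 3.72e-06). Wnt4 was at 6.94, 6.29 and 6.60 in KO SSt and at 1.84, 1.64 and 1.83 in WT SSt (log2 fold change 1.90). The secreted antagonist Sfrp2 rose as well, to 32.2, 26.2 and 25.3 in KO SSt against 7.72, 7.89 and 8.84 in WT SSt (log2 fold change 1.77), and Axin2, a common target of the pathway, by 1.25. Wnt5a, of the non-canonical branch, fell to 46.8, 40.1 and 37.8 in KO SSt, against 81.5, 78.6 and 80.0 in WT SSt (log2 fold change -0.95).

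Positional genes differed in both directions. HOX genes keep the memory of body position in stromal cells, and of 11 tested, 4 rose (2 called), 6 fell (4 called) and 1 did not pass. Against this stand 2.32% of all genes called higher and 4.69% called lower. Hoxc8 was at 5.76, 6.01 and 5.67 scaled FPKM in KO SSt and at 1.38, 1.02 and 1.18 in WT SSt (log2 fold change 2.28, SE 0.133), and Hoxc6 rose by 1.28. Hoxd10 was at 0.519, 0.458 and 0.478 in KO SSt and at 2.24, 1.91 and 1.84 in WT SSt (log2 fold change -2.03), and Hoxd9 fell by 1.27. The HOX cofactor Meis2 was at 3.99, 3.52 and 3.83 in KO SSt and at 0.882, 0.745 and 0.977 in WT SSt (log2 fold change 2.12). The heart and limb factor Hand2 fell to 0.859, 0.534 and 0.927 in KO SSt, against 2.86, 3.87 and 3.27 in WT SSt (log2 fold change -2.09). Retinoic acid, which patterns HOX genes, is made by Aldh1a2, and this enzyme was at 0.0787, 0.353 and 0.146 in KO SSt and at 3.23, 3.06 and 3.37 in WT SSt (log2 fold change -4.02, SE 0.442). Crabp1, which binds retinoic acid in the cytoplasm, was at 13.2 ± 0.661 in KO SSt and at 1.87 ± 0.248 in WT SSt (SD, n = 3 each), with no overlap (log2 fold change 2.81).

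Most tested glycolysis, hypoxia and antioxidant genes were lower. Of 24 genes of glucose uptake and glycolysis, 18 fell (2 called), 2 rose and 4 did not pass, with a median of -0.36, and with library totals 15 fell. Among all genes, 26.9% were lower and 4.69% were called lower. Slc2a1, the main glucose transporter, was at 118, 107 and 101 scaled FPKM in KO SSt and at 238, 245 and 245 in WT SSt (log2 fold change -1.16, SE 0.0534). Ldha, which makes lactate, was at 1590, 1445 and 1414 in KO SSt and 1680, 1644 and 1704 in WT SSt (log2 fold change -0.18, adjusted p 0.0134). Of 23 hypoxia genes, 14 fell (4 called), 3 rose and 6 did not pass. Epas1 (HIF-2alpha) had 1.96, 1.55 and 1.33 in KO SSt and 7.83, 9.08 and 10.6 in WT SSt (log2 fold change -2.50), while Hif1a, at 152, 139 and 136 in KO SSt and 165, 165 and 166 in WT SSt, fell by 0.22.

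Of 24 antioxidant genes, 17 fell (4 called), 3 rose (1 called) and 4 did not pass. Among all genes, 4.69% were called lower and 2.32% called higher. Slc7a11, which imports cystine for glutathione, was at 6.70, 6.70 and 6.04 scaled FPKM in KO SSt and at 51.7, 59.5 and 68.1 in WT SSt (log2 fold change -3.20, SE 0.102). Hmox1, which degrades heme, was at 223, 214 and 208 in KO SSt and at 657, 629 and 654 in WT SSt (log2 fold change -1.59, SE 0.0347). Gpx3, the secreted glutathione peroxidase, was the called one among those that rose, to 69.5, 77.1 and 86.4 in KO SSt, against 11.4, 12.8 and 14.0 in WT SSt (log2 fold change 2.61). Psat1 and Phgdh, of serine synthesis, rose by 1.11 and 1.10 on the log2 scale. Targets of the glucocorticoid receptor fell in 9 of 10 members, with a median of -0.67.

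Beyond the lists, the 10 called genes with the highest fold change, at a mean of at least 5 scaled FPKM in the higher group and no overlap, included RGD1560795, Fam111a, LOC680920, Crabp1, Col2a1, Npnt, Cryab, Cd248 and Gpx3. Fam111a, a nuclear protease that assists DNA replication, was at 78.0, 87.3 and 88.6 scaled FPKM in KO SSt and at 4.18, 4.92 and 4.06 in WT SSt (log2 fold change 4.27, SE 0.0905, adjusted p 1.86e-07). Cd248 (endosialin), a surface protein of pericytes and fibroblasts, was at 13.8, 11.4 and 16.0 in KO SSt and at 1.88, 2.78 and 1.94 in WT SSt (log2 fold change 2.64). Npnt, a ligand of integrin alpha8, was at 6.81, 8.23 and 8.31 in KO SSt and at 1.38, 1.06 and 0.971 in WT SSt (log2 fold change 2.77). Its receptor subunit Itga8 fell instead, by 1.65 on the log2 scale.

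The 10 lowest by the same rule were LOC103689986, Serpinb3a, Ly6al, AABR07037009, ENSRNOG00000055412, Siglec5, Cd69, ENSRNOG00000056808, Il10 and LOC100359515. By a further rule, 3 genes with at least 5 scaled FPKM in every WT SSt library had no count in any KO SSt library. With 3 counts written for each KO library, the serine protease inhibitor Serpinb3a (0, 0 and 0 counts in KO SSt, against 444, 895 and 1086 counts in WT SSt) was at least 255-fold lower in KO SSt and the LY6 family gene Ly6al (0, 0 and 0 counts in KO SSt, against 553, 696 and 607 counts in WT SSt) at least 198-fold lower. Ly6al had 0 counts in the KO FBS and KO CMS libraries too, and 27, 12 and 27 counts in WT FBS and 31, 16 and 9 counts in WT CMS. Serpinb3a, in contrast, was present in KO FBS (194, 36 and 3 counts) and at 0 in WT FBS. LOC103689986, described as YIF1B, had 0, 0 and 0 counts in KO SSt, against 1488, 1781 and 1663 counts in WT SSt, and was at least 525-fold lower in KO SSt, but it was also at 0 in KO FBS replicate 1, KO CMS replicate 3 and WT CMS replicate 3 and had 946 to 1093 counts in the other FBS and CMS libraries, so libraries of both genotypes were at 0. ENSRNOG00000056808 likewise varied within groups, at 0.236, 0.237 and 43.3 scaled FPKM in KO FBS, against 54.2, 53.3 and 0.244 in WT FBS. LOC100359515, annotated as a pseudogene, had 1.67, 0.966 and 1.02 scaled FPKM in KO SSt and 162, 178 and 175 in WT SSt. Where the reads of such copies come from was not tested.

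Whether these differences belong to SSt was tested against the same KO and WT comparison under FBS and under CMS. The 3 comparisons share no library. KO and WT differed in 361 of 12643 genes (2.86%) under FBS and in 943 of 12496 genes (7.55%) under CMS. The FBS count was 212, 186 and 194 without WT FBS replicate 1, 2 and 3, and 356 without KO FBS replicate 1. Under CMS, library totals in place of TMM moved the split of genes past the adjusted p to 33.3% higher, against 49.4%. Replicate 1 of KO FBS was unlike replicates 2 and 3, as Nos2 shows (248, 21.9 and 11.8 scaled FPKM in KO FBS, against 4.04, 4.20 and 4.90 in WT FBS). Beyond the counts of called genes given without this library, its part in the FBS values was not examined. Across genes, the fold changes under SSt were not correlated with those under FBS (r = -0.00417 over 12093 genes) and weakly and inversely correlated with those under CMS (r = -0.157 over 12020 genes), where genes are not independent replicates.

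The difference of the SSt fold change from the mean of the FBS and CMS fold changes, fitted over all 18 libraries, was called in 1556 of 13317 genes (11.7%), 732 of them higher and 824 lower. Without KO FBS replicate 1 the count was 1413. With library totals the median of this difference over all genes was 0.157, against 0.03 with TMM, and 67.7% of genes past the adjusted p were higher, against 51.5%. Of the 878 genes called under SSt, 590 differed from the other treatments in the direction of their SSt change, 425 of the 587 lower genes and 165 of the 291 higher genes. These genes were chosen by their SSt change and the contrast uses the same SSt libraries, so the choice favours that direction. Under CMS, 231 of the lower genes passed the adjusted p in the opposite direction and 142 in the same direction. For the higher genes under CMS the order was reversed, with 54 opposite and 91 the same. Under FBS, 43 of the lower genes were opposite and 99 the same, and 5 of the higher genes were opposite and 76 the same.

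The medians of the inflammatory groups had opposite signs under the treatments. Il1b, far lower in KO SSt, was at 342, 54.7 and 33.5 scaled FPKM in KO FBS against 19.1, 17.4 and 18.8 in WT FBS, and at 45.2, 122 and 168 in KO CMS against 15.5, 8.33 and 7.74 in WT CMS. Its log2 fold change was 3.41 under CMS (adjusted p 0.00171) and 2.96 under FBS (adjusted p 0.0753), and the difference of SSt from both was -8.69 (SE 0.938, adjusted p 4.09e-06). The medians of the interleukins and colony-stimulating factors were -1.84 under SSt, 1.04 under FBS and 1.21 under CMS. They cover 20, 17 and 16 tested members and so not the same genes, since Il10 and Il11 were tested under SSt alone. Under FBS 3 of 17 passed as higher and under CMS 10 of 16, against 768 of 12643 and 2284 of 12496 genes. In the test of the difference, 14 of 20 members passed as lower under SSt, against 22.2% of all genes. For chemokines the medians were -1.06, 1.48 and 1.62 in the same order, with 16 of 18 members lower by that test. Macrophage markers, in contrast, had medians of -0.87, -0.12 and -0.13. Under CMS 14 of 27 macrophage markers passed as lower and 6 as higher. All 23 hypoxia genes and 19 of 24 glycolysis genes were lower under SSt by the test of the difference too.

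For cell cycle genes the signs were the reverse. Mki67, higher in KO SSt, was at 5.27, 14.7 and 17.0 scaled FPKM in KO FBS against 21.0, 22.5 and 21.9 in WT FBS, and at 5.27, 3.94 and 3.60 in KO CMS against 22.7, 20.8 and 21.7 in WT CMS. The difference was 2.26 on the log2 scale (adjusted p 8.41e-05). Medians of the mitosis genes were 0.85 under SSt, -0.57 under FBS and -1.67 under CMS, and all 43 passed the test of the difference as higher under SSt, against 23.6% of all genes. For replication genes the medians were 0.56, -0.26 and -0.68, with 41 of 42 higher by that test. Under CMS all 43 mitosis genes were lower in KO, against 18.7% of all genes, while under FBS 2 passed as lower, against 6.19%. Cd74, higher in KO SSt, was at 116, 144 and 124 in KO CMS against 391, 382 and 402 in WT CMS, and at 147, 440 and 483 in KO FBS against 387, 315 and 356 in WT FBS, where the groups overlapped (difference 2.21, adjusted p 9.66e-05).

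**Figure D4:**
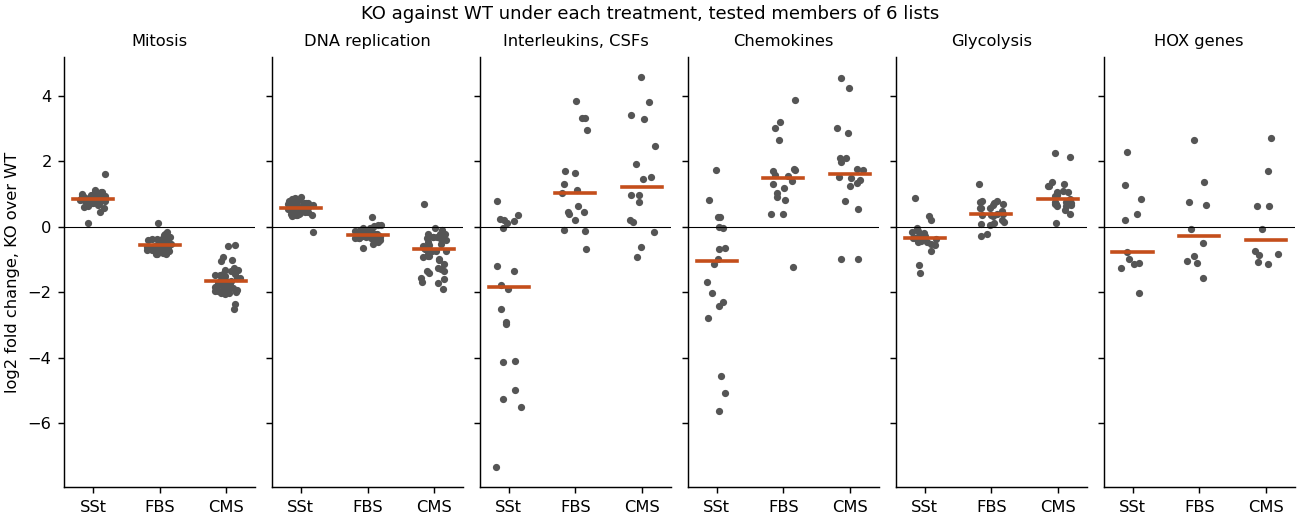
Log2 fold change (KO over WT) of each tested member of 6 gene lists under SSt, FBS and CMS, with a line at the median. Mitosis medians run 0.85, -0.57 and -1.67 and chemokine medians -1.06, 1.48 and 1.62, whereas HOX genes lie on both sides of 0 under all 3 treatments.

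Another set of genes was called in the same direction under all 3 treatments. Of the 878 genes, 79 were called in the same direction under FBS and CMS as well, 44 higher and 35 lower, and for 63 of these no difference between SSt and the other treatments was called, which does not show that the sizes were equal. Crabp1 was higher by 2.81 under SSt, 3.08 under FBS and 2.67 under CMS on the log2 scale (difference -0.05, SE 0.251, adjusted p 0.906). Hoxc8 was higher by 2.28, 2.65 and 2.72, and Meis2 by 2.12, 2.75 and 2.57. Sfrp2, at 32.2, 26.2 and 25.3 scaled FPKM in KO SSt, was at 101, 72.0 and 76.8 in KO FBS against 25.4, 21.9 and 21.6 in WT FBS (difference -0.08, adjusted p 0.733). Tbx2, Hoxc6, Lama2, Fmod and Slit3 were also higher under all 3 treatments, and Tbx4 and Des were lower under all 3. Among these the size differed by the test for Fmod (difference 0.50, adjusted p 0.00251), Tbx4 (difference 0.91, adjusted p 0.00193) and Des (difference 0.97, adjusted p 0.00198).

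Among the lower genes of this set, Aldh1a2 fell by 4.02 under SSt, 3.97 under FBS and 3.71 under CMS (difference -0.17, SE 0.455, adjusted p 0.797). Prg4 was at 188, 115 and 111 scaled FPKM in KO FBS against 534, 508 and 550 in WT FBS, and at 155, 144 and 145 in KO CMS against 647, 582 and 579 in WT CMS, and its fall was larger under SSt (difference -0.74, adjusted p 0.00283). Apoe, which carries lipid, fell by 2.14, 1.46 and 1.64 (difference -0.58, adjusted p 2.99e-06). Fam111a was higher under every treatment, at 44.8, 62.9 and 60.7 in KO FBS against 7.11, 7.37 and 8.25 in WT FBS, and the gap was wider under SSt (difference 1.43, adjusted p 1.43e-06). HOX genes as a list had 1 of 11 members past the test of the difference, against 45.8% of all genes. For these genes too, culture and genotype cannot be told apart.

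**Figure D5:**
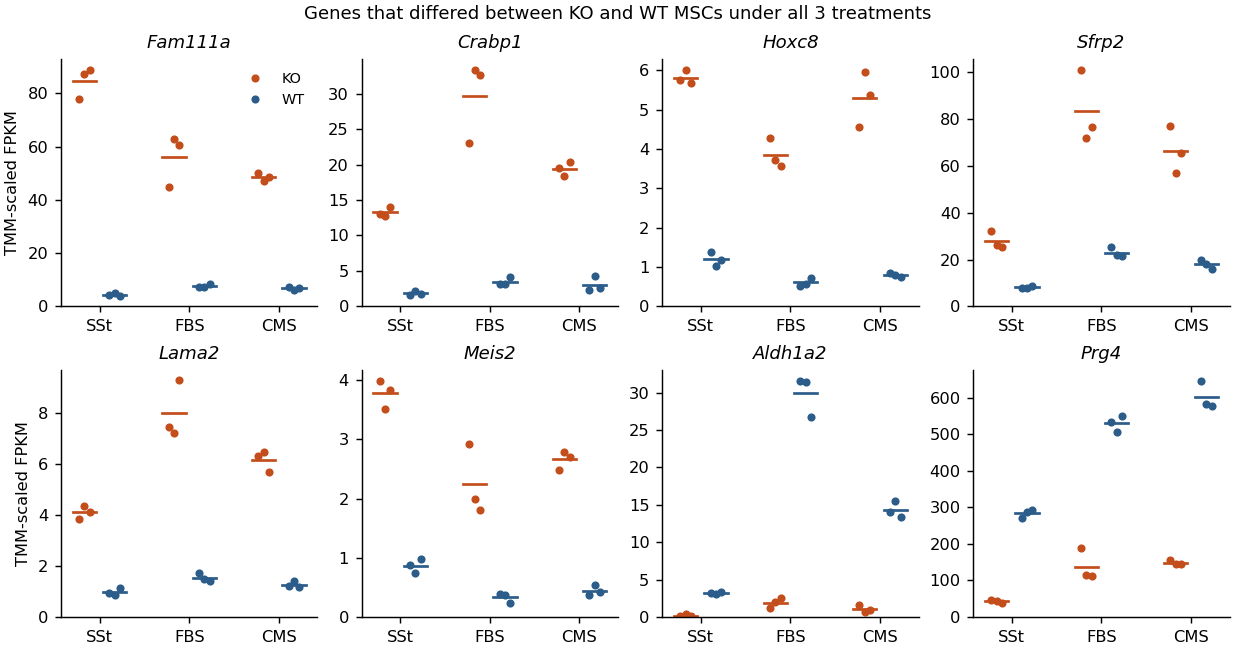
Scaled FPKM (linear axes from 0, scaled within each treatment) of 8 genes in each KO library (orange, left) and WT library (blue) under SSt, FBS and CMS, with a line at the mean of 3. In every panel the 3 KO libraries lie on the same side of the 3 WT libraries under all treatments, above for 6 genes and below for Aldh1a2 and Prg4.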

How the data were processed

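RNA-seq libraries of miR-337-/- (KO) and wild type (WT) bone marrow MSCs were grouped by the labels. The deposited tables hold counts and FPKM per gene, while the gene identifiers are of the rat. Bowtie (version 0.12.2) and mm10, a mouse build, appear in the submitters' processing notes. How reads were assigned to near-identical genes, and whether strand was used, is not given in the sources used here.

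The raw counts of the KO and WT tables were joined by gene identifier. Genes with a deposited FPKM of at least 1 in 3 of 6 libraries were tested by edgeR 4.0.16 (quasi-likelihood F test, TMM scaling, Benjamini-Hochberg adjustment over all genes tested) in R 4.3.3. Calls needed a fold change of 2 or more together with an adjusted p under 0.05, and SE is of the log2 fold change. Printed levels are the authors' FPKM divided by the TMM factor. The difference between treatments was a contrast in 1 fit of all 18 libraries. The fits were tested on simulated data. Alternatives were limma 3.58.1 on log2(FPKM + pseudocount), DESeq2 1.42.0, other scalings and filters, a replicate block and leaving out each library.

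Genes were named by a rule: from the called genes whose groups did not overlap and whose higher group averaged an FPKM of 5 or more, the 10 largest and 10 lowest fold changes, genes the study names, up to 4 abundant and up to 4 most changed called members of each list, and genes at 0 in 1 genotype. Genes outside it (Begain, Dlk1, Csf2, Il1a, Tnf, Osm, Lif, Il1rn, C1qa, C1qb, C1qc, Csf1r, Col18a1, Col27a1, Col4a5, Mcm5, Axin2, Tbx4, Slit3 and Apoe) were chosen after their values were seen. A few genes that the rule names are not reported here. The comparison and the lists were chosen with earlier results of these data known.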

Additional observations from a re-analysis of the deposited data

Results flagged for a closer look

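The KO against WT difference of 1556 genes under SSt differed from the mean of the same difference under FBS and CMS, by edgeR's test of that contrast. Among the 20 genes with the highest and lowest fold changes under SSt, 15 were in this set, and the values given here are the log2 difference of SSt from the other treatments. It was 4.81 for RGD1560795, 3.71 for LOC680920, 1.96 for the cartilage collagen Col2a1, 1.86 for Cd248, 1.60 for the small heat shock protein Cryab, 1.43 for Fam111a and 1.07 for Gpx3. It was -8.65 for Il10, -9.72 for the myeloid receptor Siglec5, -11.17 for the activation marker Cd69, -11.81 for LOC100359515, -10.35 for ENSRNOG00000056808, -13.39 for LOC103689986 and -20.23 for Serpinb3a. RGD1560795 and ENSRNOG00000056808 varied within groups, RGD1560795 with 4.35, 4.54 and 0.180 scaled FPKM in KO CMS against 4.85, 0.403 and 2.66 in WT CMS (SE of its difference 1.57), and ENSRNOG00000056808 with 0.246, 68.4 and 0.197 in KO CMS against 0.176, 0.231 and 0.191 in WT CMS, and LOC103689986 was at 0 in single libraries of both genotypes. These genes were chosen by their SSt change, and the contrast uses the same SSt libraries. Fitted values of genes with 0 counts in KO SSt are no bounds on the change. Il10 was near the detection limit in FBS too, at 1.16, 0 and 0 scaled FPKM in KO FBS and 0, 0 and 0.167 in WT FBS. Cd69 was at 0, 0.0995 and 0.0734 in WT FBS. The sizes of such differences are therefore uncertain. No explanation of these differences was tested.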

How the results depend on the processing

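Under SSt, 878 genes were called (291 higher, 587 lower). The count was 870 with DESeq2, 881 with RLE scaling, 905 with library totals and 1307 of 19423 genes with no filter (505 higher). With an FPKM of at least 5 it was 527 (140 higher, 387 lower), with limma and a pseudocount of 1 it was 561 (193 and 368), with a pseudocount of 5 it was 278 (75 and 203), and without the fold limit 6630 (3258 and 3372). A larger pseudocount shrinks the fold changes of low genes. Leaving out 1 library gave 779 to 854 (206 to 312 higher, 480 to 621 lower). List members called numbered 214, with 106 at a pseudocount of 5, 749 without the fold limit and 191 to 212 without 1 library. Named genes called numbered 168, with 101 at a pseudocount of 5 and 142 to 157 without 1 library, and 99 kept the call in all 17 settings.

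Under FBS, 361 genes were called (212 higher, 149 lower), with 192 (123 and 69) at an FPKM of at least 5, 1551 (768 and 783) without the fold limit and 186 to 385 (127 to 211 and 56 to 174) without 1 library. Under CMS, the 943 genes (422 and 521) became 485 (255 and 230), 4621 (2284 and 2337) and 762 to 950 (324 to 435 and 359 to 567) in the same order. The difference of SSt from both, called in 1556 genes (732 and 824), gave 1034 (443 higher), 6103 (3142 and 2961) and 1413 to 1640 (665 to 784 and 748 to 856). The larger direction turned under CMS at an FPKM of at least 5 and without any 1 of the WT CMS libraries. Without WT CMS replicate 1, 2 and 3 it was 435, 401 and 406 higher and 361, 361 and 359 lower. It turned for the difference with library totals too (893 higher, 703 lower). Without the fold limit it turned under FBS and for the difference. No named gene with an adjusted p under 0.05 under SSt changed sign in these settings, but 23 others did, and list medians near 0 did so with library totals (integrins -0.07 and 0.02).

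Replicate numbers did not pair the samples, since the deviations of same-numbered KO and WT libraries correlated at 0.059, 0.046 and -0.059. With a replicate block 884 genes were called under SSt, 287 under FBS, 929 under CMS and 1534 for the difference.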
